A study of Mus musculus with 14 samples.

Results

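The transcripts of Paneth cell defensins and other antimicrobial products were followed in ileum mucosa through the rows of the count table named Defa followed by a number, the Defa pseudogene rows, and the rows of Lyz1, Lyz2, Mmp7, Ang4, Itln1 and Pla2g2a. The rule found 45 of the 54532 rows, namely 22 alpha-defensin genes, 17 alpha-defensin pseudogenes and 6 other products. Reads were counted on 39 of them in at least 1 mouse, on all 22 alpha-defensin genes, on 11 of the 17 pseudogenes and on all 6 other products. The filter on low counts left 27 members for the comparison, which were 18 alpha-defensin genes, 3 pseudogenes and the 6 other products. The 12 members that were counted but not tested were Defa25, Defa27, Defa28, Defa33 and 8 pseudogenes, and the 6 members without any count were pseudogenes. Another 6 rows of the same cluster, which RefSeq names Defa38 to Defa43 and the count table lists under other names, fall outside the rule and are given separately.

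Paneth cells sit at the base of the small intestinal crypts and secrete granules filled with antimicrobial proteins. The most abundant of these in mice are the alpha-defensins, short cysteine-rich peptides also called cryptdins, which are made as inactive precursors and cleaved by the matrix metalloproteinase encoded by Mmp7. Lysozyme (Lyz1), the ribonuclease angiogenin 4 (Ang4), the microbial glycan-binding lectin intelectin 1 (Itln1) and a secretory phospholipase A2 (Pla2g2a) are other products of the same cells, whereas Lyz2 encodes the lysozyme of macrophages and other myeloid cells. The alpha-defensin genes lie in a cluster of near-identical copies, and inbred mouse strains are known to differ in which copies they carry.

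Samples came from 7 WT and 7 IKO male mice, with 1 library per mouse. WT mice were NCoR1 flox/flox, and IKO mice carried in addition Cre recombinase under the villin promoter, which is active in the intestinal epithelium, so that the corepressor NCoR1 was deleted in intestinal epithelial cells. The floxed allele is thus shared by both groups and Cre is not. The authors' methods give an age of 7 to 8 weeks at the start, whereas a figure legend gives a higher age with chow before the diet switch. All mice received the high-fat diet (HFD) for 15 weeks, after which the ileum mucosa was scraped. The scrape is labelled as intestinal epithelial cells but holds other mucosal cells, and Paneth cells are only a small share of it.

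The labelled tissue held the defining products of Paneth cells at high levels. Expressed per gene length, Defa24 had the highest mean of all members (1631 FPKM over the 14 mice), followed by Defa22 (1159 FPKM), Defa21 (1104 FPKM), Lyz1 (840 FPKM), Defa30 (681 FPKM) and Itln1 (323 FPKM). FPKM are fragments per kilobase of gene length, scaled by library as in the deposited table. The remaining tested members had mean levels from 228 FPKM for Defa20 down to 2.97 FPKM for Defa-ps1.

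The alpha-defensin copies differ from each other by so few bases that the sequence limits what their counts can tell. Coding sequences of the 22 genes were read from the GENCODE M21 transcripts of GRCm38. Over their 231 pairs the identity ranged from 65.5% to 100%, with a median of 84.0%, and 34 pairs were at least 95% identical. The coding sequence was the same in 5 pairs, which were Defa3 and Defa17, Defa2 and Defa33, Defa20 and Defa32, Defa23 and Defa31, and Defa36 and Defa37. The last 108 coding bases, which encode most of the mature peptide, are shown for 6 genes on which the results turn, with capitals where the base differs from Defa24 at the same position.
Defa24: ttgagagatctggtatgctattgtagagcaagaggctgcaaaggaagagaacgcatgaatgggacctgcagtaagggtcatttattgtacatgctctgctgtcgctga
Defa30: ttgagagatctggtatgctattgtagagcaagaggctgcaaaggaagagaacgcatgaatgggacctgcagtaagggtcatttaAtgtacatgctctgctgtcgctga
Defa17: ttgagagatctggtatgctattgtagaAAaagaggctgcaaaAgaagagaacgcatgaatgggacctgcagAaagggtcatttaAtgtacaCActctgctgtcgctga
Defa31: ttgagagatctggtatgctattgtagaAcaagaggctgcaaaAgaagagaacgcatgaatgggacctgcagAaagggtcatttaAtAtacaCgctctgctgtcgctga
Defa22: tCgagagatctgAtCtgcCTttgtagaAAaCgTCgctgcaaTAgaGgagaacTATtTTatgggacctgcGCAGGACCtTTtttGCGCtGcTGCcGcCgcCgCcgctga
Defa21: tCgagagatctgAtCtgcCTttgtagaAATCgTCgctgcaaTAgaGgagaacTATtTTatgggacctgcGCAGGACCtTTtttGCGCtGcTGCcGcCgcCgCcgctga
Defa30, Defa17 and Defa31 resembled Defa24 closely in this stretch, with 1, 7 and 6 differing bases. Defa22 and Defa21 differed from Defa24 at 40 and 41 of the 108 bases, and from each other at 2 bases of the whole coding sequence.

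A second pair is shown because its members, although nearly the same, differed in the mice described further on. Capitals mark the base at which Defa35 and Defa36 differ in their last 108 coding bases, and over the whole coding sequence they differed at 3 bases.
Defa35: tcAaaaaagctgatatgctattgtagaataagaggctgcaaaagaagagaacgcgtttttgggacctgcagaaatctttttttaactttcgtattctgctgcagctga
Defa36: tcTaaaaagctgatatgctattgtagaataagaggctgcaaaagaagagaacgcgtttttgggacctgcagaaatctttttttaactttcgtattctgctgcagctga

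The length of sequence shared exactly with other genes was then measured in windows of 150 bases, the length of 1 read. The reads were paired-end, so a fragment can cover more sequence than 1 window. The shares below thus hold for single reads and can be higher than those for read pairs. For Defa2, Defa31, Defa33 and Defa37, 100% of the windows of the annotated transcripts also occurred in another gene, and for Defa20 and Defa32 99.6%. The share was 93.7% for Defa36, 88.7% for Defa17, 87.0% for Defa23, 84.3% for Defa3, 69.5% for Defa34 and 69.2% for Defa5. Defa21 and Defa22 shared 10.8% and 10.7%, with each other alone. Defa24, Defa26, Defa27, Defa29, Defa30, Defa35 and the 6 other products shared no window with any other annotated gene. How reads that match several genes were counted is not given in the sources used here, so the counts of the genes with a high share are uncertain between the copies.

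**Figure D1:**
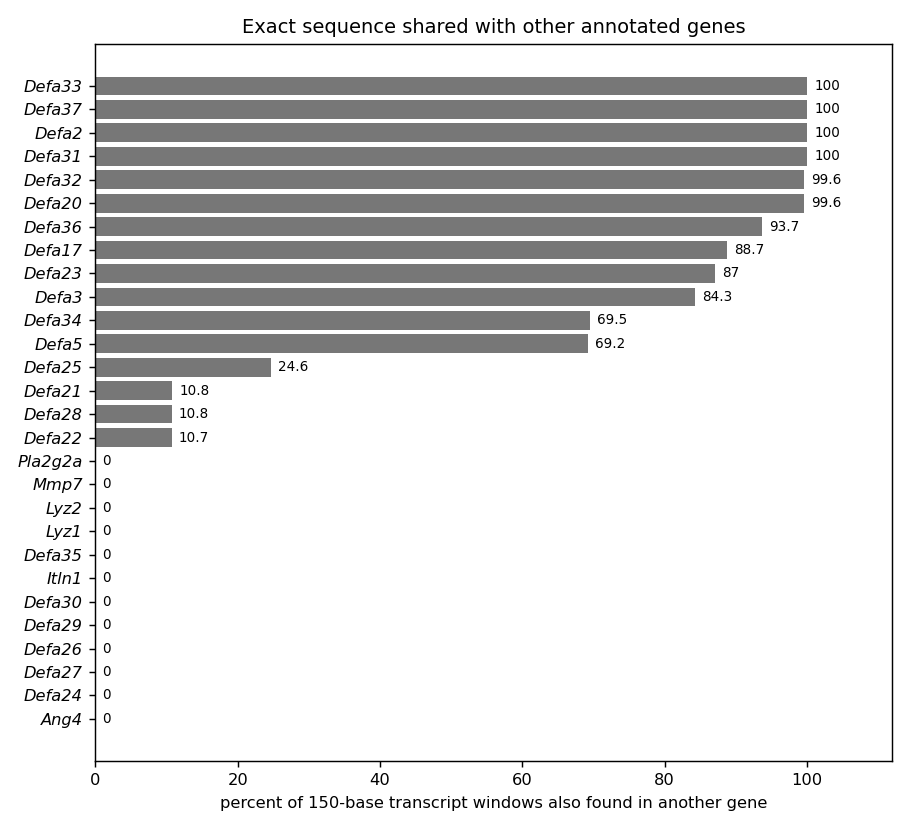
Percent of the 150-base windows of each gene's annotated transcripts that occur exactly in another annotated gene (x axis), for the 22 alpha-defensin genes and the 6 other products (y axis, 1 bar per gene). 12 of the alpha-defensin genes lie at 69.2% or above, Defa21 and Defa22 near 11, and Defa24, Defa30 and the other products at 0.

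Promoters were compared for the 12 alpha-defensin genes of the rule with a promoter in the RefSeq set used (GRCm38.p6). Each spans 250 bases before to 50 bases after the start. Defa24 had no promoter in that set and was not compared. Defa21 and Defa22 had the same 250 bases before the start, and so did Defa23 and Defa31, Defa2 and Defa20, and Defa36 and Defa37. The 120 bases before the start are shown for Defa22 (chr8:21162157-21162276, plus strand), which are also those of Defa21, and for Defa31 (chr8:21191453-21191572, plus strand), which are also those of Defa23, because the counts of Defa22 and Defa31 moved in opposite directions between mice. Capitals mark the sequence TATAAA.
Defa22: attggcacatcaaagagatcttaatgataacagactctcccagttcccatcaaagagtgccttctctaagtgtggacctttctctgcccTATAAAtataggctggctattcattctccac
Defa31: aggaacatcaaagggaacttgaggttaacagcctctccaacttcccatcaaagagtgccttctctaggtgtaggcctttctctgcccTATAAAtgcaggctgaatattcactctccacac
With 4 of the genes under other names, 15 of 16 promoters in the cluster held TATAAA on either strand, against 13.6% of all 32851 promoters of the same length. The hexamers CTTTGA and CTTTGT, which are cores of the binding sequence of the Wnt effector TCF4, were found on either strand in 13 and 9 of the 16, against 16% and 18.7% of all promoters. These are matches of letters, and the copies share most of their sequence.

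Depth ranged from 14749669 to 18744592 counts on genes in WT and from 15822384 to 21557468 in IKO mice. Transcripts encoded in the mitochondrial genome made up 50.3% of the counts of IKO 4 and 23.9% of those of WT 3, against 3.49% to 10.3% in the other 12 mice, and the markers of smooth muscle summed to 13004 CPM in WT 4 against 124 to 1113 CPM elsewhere. CPM here are reads scaled to library size with TMM factors, which correct for differences in the composition of the libraries. The targeted gene followed the labels. Ncor1 was lower in every IKO mouse than in every WT mouse, with a log2 fold change of -1.41 (SE 0.18, adjusted p = 0.00051, edgeR's quasi-likelihood F test with Benjamini-Hochberg adjustment).

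None of the Paneth cell products was called different between IKO and WT mice. In edgeR's quasi-likelihood F test with Benjamini-Hochberg adjustment over the 13846 genes tested, 0 of the 27 tested members passed an adjusted p of 0.05, whereas 8.67% of all genes did. The share called was 4.38% of all genes for higher and 4.28% for lower levels in IKO mice. The adjusted p of the members lay between 0.132 and 0.961. The groups overlapped for all 27 members, and 3.1% of all genes had groups without overlap. One member, Lyz2, had an unadjusted p under 0.05, as did 30.4% of all genes. DESeq2 also called 0 members, with its smallest adjusted p of 0.0751 at Lyz2. A change in the number of Paneth cells and a change in transcript per Paneth cell, in either direction, cannot be told apart in such bulk samples.

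The values themselves were spread widely. The log2 fold change was above 0 for 20 of the 27 members and below 0 for 7, with a median of 0.29 (-0.09 over all genes tested) and a range from -1.32 for Lyz2 to 1.03 for Defa2. The count depended on the mice included. Without IKO 2, 13 of the 27 were above 0 and the median was -0.0016, without IKO 4 15 were above 0 with a median of 0.063, and without WT 3 and IKO 4 12 of 26 were above 0 with a median of -0.063. Of the 21 alpha-defensin rows tested, 17 were above and 4 below 0, with a median of 0.34 and standard errors of 0.43 to 1.13. These rows come from 1 cluster in the same mice and share reads, so they are not 21 separate observations.

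**Figure D2:**
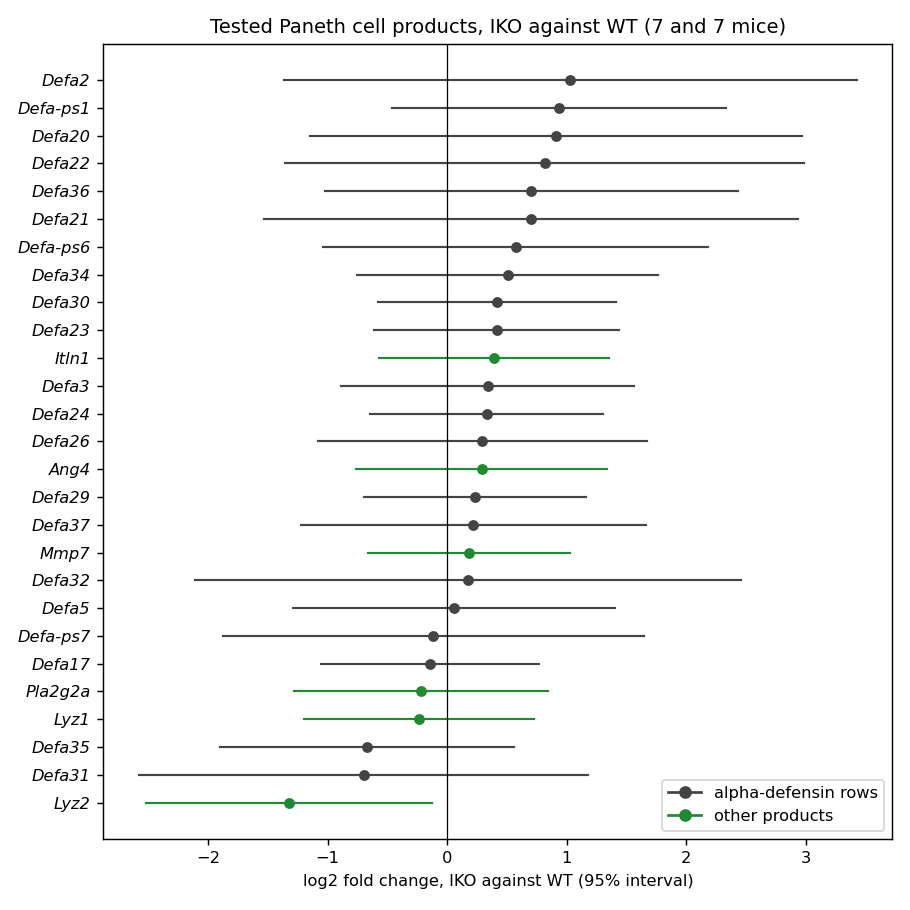
Log2 fold change in IKO against WT mice (x axis, dots) with its 95% interval (lines) for each of the 27 tested members (y axis), alpha-defensin rows in grey and other products in green. All intervals except that of Lyz2 include 0, and those of Defa2, Defa32 and Defa21 are the widest.

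Defa24, an alpha-defensin and the member with the highest level, was counted at 1226, 539, 424, 161, 733, 429 and 758 CPM in WT 1 to WT 7. In IKO 1 to IKO 7 it stood at 391, 1636, 881, 1361, 523, 289 and 291 CPM. The lowest value was in a WT mouse and the highest in an IKO mouse, and the groups overlapped over most of their range. The means were 610 ± 339 CPM (SD, n = 7) in WT and 767 ± 544 CPM (SD, n = 7) in IKO mice. The log2 fold change was 0.33 (SE 0.46, 95% interval -0.65 to 1.31, adjusted p = 0.655, edgeR), so that neither a lower nor a more than 2-fold higher level is outside the interval.

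Defa30, which differs from Defa24 at 4 coding bases, was counted at 444, 254, 174, 66.8, 268, 120.5 and 307 CPM in WT 1 to WT 7. Its levels in IKO 1 to IKO 7 were 129, 768, 348, 481, 208, 147 and 108 CPM. The order of the mice was close to that for Defa24, with IKO 2 highest and WT 4 lowest. The means were 234 ± 126 and 313 ± 242 CPM (SD, n = 7 each), with a log2 fold change of 0.42 (SE 0.47, 95% interval -0.57 to 1.41, adjusted p = 0.565, edgeR).

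Defa22, the alpha-defensin with the second highest level, was counted at 813, 347, 348, 1.85, 472, 0.0485 and 494 CPM in WT 1 to WT 7. The IKO mice had 136, 1492, 744, 1067, 449, 245 and 231 CPM. WT 4 and WT 6 stood far below the other 12 mice, with 39 and 1 reads against at least 2334. The means were 354 ± 287 and 624 ± 505 CPM (SD, n = 7 each), and the log2 fold change was 0.82 (SE 1.02, 95% interval -1.35 to 2.99, adjusted p = 0.614, edgeR).

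Defa21, its near-copy, was counted at 868, 367, 322, 1.14, 449, 0 and 466 CPM in WT 1 to WT 7. In the IKO mice the levels were 139, 1375, 694, 942, 428, 215 and 236 CPM. Again WT 4 (24 reads) and WT 6 (0 reads) lay apart, and IKO 1 was the lowest of the remaining mice. The means were 353 ± 299 and 576 ± 456 CPM (SD, n = 7 each), with a log2 fold change of 0.70 (SE 1.05, 95% interval -1.53 to 2.94, adjusted p = 0.679, edgeR). Without WT 4 and WT 6, left out after their values had been seen, 0 members were called and the median log2 fold change over the members tested was 0.07.

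Lyz1, the Paneth cell lysozyme, which breaks bacterial cell walls, was counted at 2457, 859.9, 719, 254, 1308, 1126 and 1375 CPM in WT 1 to WT 7. In IKO 1 to IKO 7 the levels were 432, 1509.9, 1261, 1995, 777, 428 and 483 CPM. WT 1 was the highest and WT 4 the lowest mouse, both within the WT group. The means were 1157 ± 690 and 984 ± 617 CPM (SD, n = 7 each), and the log2 fold change was -0.23 (SE 0.45, 95% interval -1.19 to 0.73, adjusted p = 0.756, edgeR).

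Itln1 was counted at 526, 322, 332, 136, 292, 336 and 301 CPM in WT 1 to WT 7, and at 185, 559.9, 378, 1266, 256, 157 and 139.7 CPM in IKO 1 to IKO 7. IKO 4, the mouse with the high mitochondrial share, was more than 2-fold above every other mouse. The log2 fold change was 0.39 (SE 0.45, 95% interval -0.57 to 1.35, adjusted p = 0.584, edgeR), and without WT 3 and IKO 4 it was -0.19. Ang4 was counted at 152, 73.9, 68.7, 27.2, 92.5, 70.8 and 95.8 CPM in the WT mice and at 36.6, 136, 108, 302, 64.4, 40.1 and 24 CPM in the IKO mice. IKO 4 was again the highest, and 4 of the 7 IKO mice were below all WT mice except WT 4. Its log2 fold change was 0.29 (SE 0.49, 95% interval -0.76 to 1.34, adjusted p = 0.721, edgeR) and turned to -0.32 without WT 3 and IKO 4.

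Mmp7, whose product activates the alpha-defensin precursors, was counted at 55.8, 28.6, 21.1, 20.6, 30.4, 34.2 and 34.6 CPM in WT 1 to WT 7. The IKO mice had 15.8, 51.2, 38.1, 97.2, 22.3, 17.4 and 14.6 CPM. The spread was wider among IKO mice, in which both the highest and the 3 lowest values occurred. The log2 fold change was 0.18 (SE 0.40, 95% interval -0.66 to 1.03, adjusted p = 0.783, edgeR), and -0.35 without WT 3 and IKO 4. The part of RNA quality in these values of IKO 4 was not tested.

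Pla2g2a was the least abundant of the 6 products, and the annotation classes it as a polymorphic pseudogene. Its levels were 16.3, 26.6, 12.6, 6.22, 6.86, 9.56 and 6.90 CPM in WT 1 to WT 7 and 3.45, 19.2, 10.4, 26.7, 4.75, 6.26 and 2.71 CPM in IKO 1 to IKO 7. The highest mouse of each group was at nearly the same level. The log2 fold change was -0.22 (SE 0.50, 95% interval -1.28 to 0.85, adjusted p = 0.796, edgeR).

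Lyz2 was counted at 63.9, 10.8, 139, 26.8, 16.9, 16.6 and 165 CPM in WT 1 to WT 7, and at 9.94, 23.9, 19.1, 32.2, 39.2, 23.2 and 28.4 CPM in IKO 1 to IKO 7. WT 7, WT 3 and WT 1 were above all IKO mice, and the other 4 WT mice lay within the IKO range. The log2 fold change was -1.32 (SE 0.56, 95% interval -2.52 to -0.12, unadjusted p = 0.0327 and adjusted p = 0.132, edgeR). Without WT 7 it was -0.87 and without WT 3 it was -0.99, and limma on log2(FPKM + 1) gave -0.66. Of the 9 macrophage markers, 9 were tested and 0 called. They summed to 49.2 to 172 CPM in WT and to 30.6 to 98.7 CPM in IKO mice. Their sum was highest in WT 7 (172 CPM) and WT 3 (115 CPM). WT 1, also above all IKO mice for Lyz2, had the lowest macrophage sum of the WT group (49.2 CPM). None of the 9 markers was at 0 in all mice. The part of macrophages in the Lyz2 difference was not tested.

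**Figure D3:**
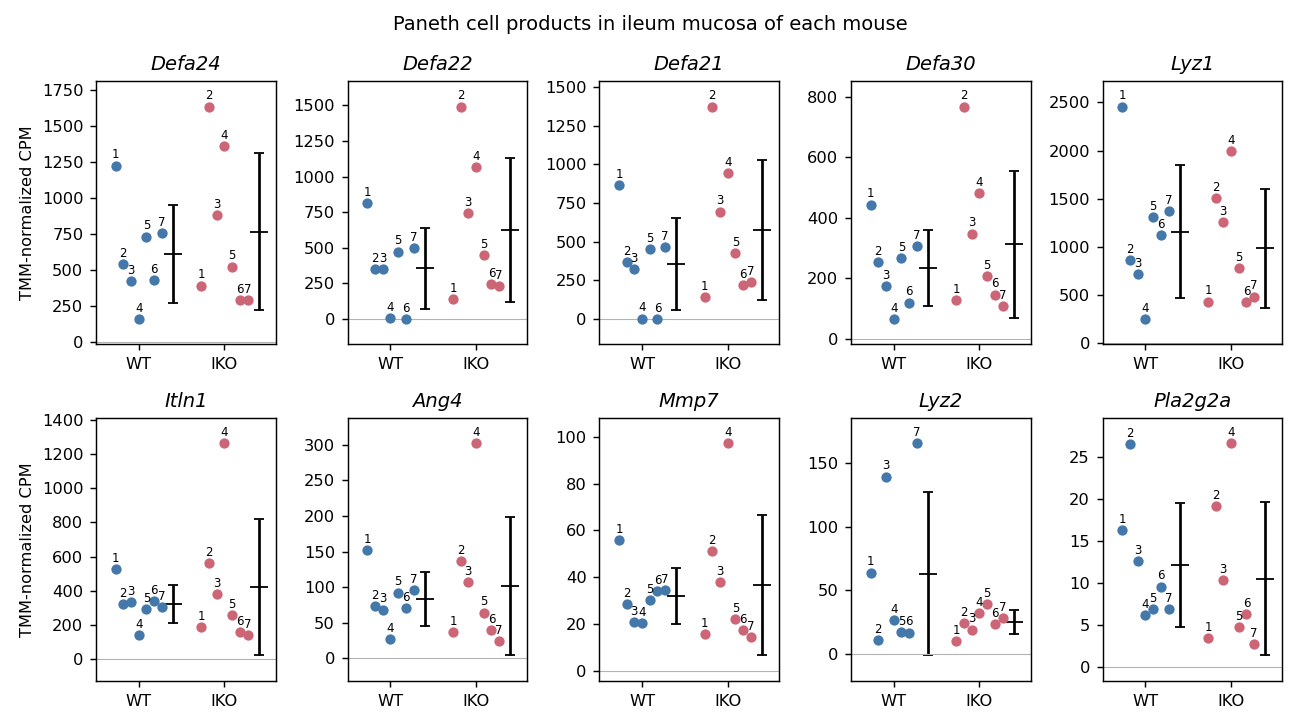
TMM-normalized CPM (y axes, linear and with a scale of their own in each panel) of the 4 alpha-defensins with the highest level and the 6 other products in each WT (blue) and IKO (red) mouse, with the mouse number above each point and the mean ± SD (n = 7) as a black bar to the right of each group. The groups overlap in all 10 panels, and WT 4 and WT 6 lie at or near 0 for Defa22 and Defa21 (1.85 and 0.0485 CPM for Defa22) but not for Defa24 or Lyz1.

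The same few mice carried the extremes of most products. IKO 2 was the highest mouse for 14 of the 27 tested members, WT 1 and IKO 4 for 5 each, WT 6 for 2 and WT 7 for 1. WT 4 was the lowest for 17, IKO 7 for 5, WT 6 for 3, and WT 3 and IKO 1 for 1 each. For Defa2 and Defa-ps7 both WT 4 and WT 6 had 0 reads, and these ties are counted under WT 4. WT 4 is also the mouse with the high smooth muscle markers, of which 7 of 7 were tested and 0 called, and the part of admixed muscle in its low values was not tested. WT 6, at 178 CPM for the same 7 markers, lay within the range of the remaining mice.

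Summed over all 39 alpha-defensin rows, the level was 1909 ± 1256 CPM (SD, n = 7) in WT and 2779 ± 2156 CPM (SD, n = 7) in IKO mice. The sums ran from 313.5 to 4170 CPM in WT, with a median of 1860 CPM, and from 952.9 to 6591 CPM in IKO mice, with a median of 1965 CPM. The ratio of the means was 1.46, and it ranged from 1.12 without IKO 2 to 1.81 without WT 1. WT 4 (313.5 CPM) and WT 6 (780 CPM) had the lowest sums of all mice and lowered the WT mean. As a share of all counts on genes, the alpha-defensins took 0.0370% to 0.550% in WT and 0.0884% to 0.620% in IKO mice. The mean shares were 0.230% and 0.237%, a ratio of 1.03, so the ratio of 1.46 holds on the TMM scale. The mean TMM factors were 1.16 in WT and 0.881 in IKO mice, with 0.579 in IKO 4. A sum over the family is not changed by reads that were split among its members, but it would miss reads that were dropped because they match more than 1 gene.

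The balance between alpha-defensin and lysozyme transcripts was closer between mice than the level of either. This relation was chosen after its values were seen, and it is given as a description, with no p-value. It is 1 of 28 ratios computed among 8 products, which were also chosen with their values known. The ratio of Defa24 to Lyz1 counts in the same mouse was 0.499, 0.627, 0.589, 0.634, 0.560, 0.381 and 0.552 in WT 1 to WT 7. In IKO 1 to IKO 7 it was 0.906, 1.08, 0.699, 0.682, 0.673, 0.675 and 0.601. It was above the highest WT value in 6 of the 7 IKO mice, and IKO 7 lay within the WT range. The mean ratio on the log2 scale was 0.46 higher in IKO mice, which is 1.37-fold, and with 1 mouse left out the difference lay between 0.37 and 0.51.

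The ratios of 6 other products to Lyz1 were taken in the same way. Defa21 and Defa22, near 0 in WT 4 and WT 6, were not among them. Differences on the log2 scale were 0.52 for Defa30, 0.37 for Defa29, 0.40 for Defa23, 0.27 for Itln1, 0.17 for Ang4 and 0.15 for Mmp7, with overlapping groups for each. The groups overlapped in all 28 ratios, that of Defa24 to Lyz1 included. The ratio of Defa30 to Defa24 was 0.281 to 0.470 in WT and 0.330 to 0.508 in IKO mice, a difference of 0.06 on the log2 scale. Ratios in a library do not depend on its normalization, and since the 7 ratios to Lyz1 share its counts they are not separate observations.

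**Figure D4:**
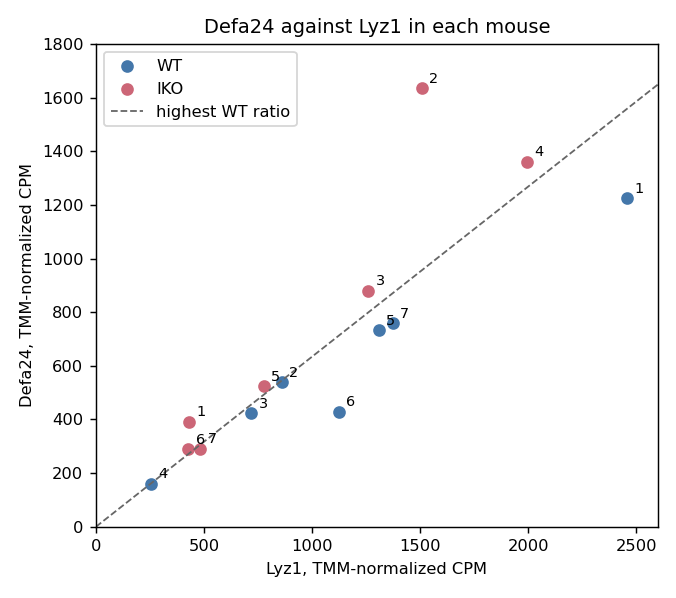
Defa24 (y axis) against Lyz1 (x axis), both in TMM-normalized CPM on linear scales, in each WT (blue) and IKO (red) mouse with its number. The dashed line is the highest WT ratio (0.634), and 6 of the 7 IKO mice lie above it.

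The composition of the alpha-defensin pool differed between individual mice within the WT group. To take the size of the pool out, the counts of each row were expressed as a percent of the Defa24 counts in the same mouse, since Defa24 shares no 150-base window with another gene. This pattern was seen in the data first, the genes named for it were chosen after their values were seen, and it is described without a test. Of the 20 tested alpha-defensin rows other than Defa24, 13 had their lowest values in WT 4 and WT 6. These were Defa2, Defa5, Defa20, Defa21, Defa22, Defa26, Defa32, Defa34, Defa36, Defa37, Defa-ps1, Defa-ps6 and Defa-ps7. Defa17, Defa31 and Defa35 had their highest values in these mice. For Defa3, Defa23, Defa29 and Defa30 neither was the case.

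Defa22 counts amounted to 1.15% of the Defa24 counts in WT 4 and 0.0113% in WT 6. In IKO 1 they amounted to 34.9%, and in the other 11 mice to between 64.3% and 91.2%. Defa21 stood at 0.707% in WT 4, 0% in WT 6, 35.5% in IKO 1 and 61.3% to 84.0% in the others. In both genes IKO 1 thus lay between the WT mice with nearly none and the remaining mice, at about 35% of Defa24. This place depends on Defa24 as the reference. The ratio of Defa24 to Lyz1 in IKO 1 (0.906) was above that of every other mouse except IKO 2 (1.08). Set against Lyz1 instead, IKO 1 (2334 reads of Defa22, 7393 of Lyz1) lay close below WT 1 (19903 and 60134 reads). Defa20 followed with 0.295% in WT 4, 0% in WT 6, 6.87% in IKO 1 and 10.3% to 21.7% in the others. No read of Defa2 was counted in WT 4 or WT 6, while IKO 1 had 1.11% and the others 2.88% to 22.7%. Over the 13 rows, IKO 1 was the next lowest mouse after WT 4 and WT 6 in 7. It was also the lowest of the other 12 mice in 3 of the 4 rows that follow neither pattern, and in 10 of all 20.

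A smaller set ran the other way. Defa17 amounted to 21.1% of Defa24 in WT 4 and 15.5% in WT 6, against 3.88% in IKO 1 and 3.21% to 5.55% in the others. Defa31 stood at 7.92% in WT 4, 3.24% in WT 6 and 2.52% in IKO 1, and at no more than 0.364% in any other mouse. Defa35 stood at 4.48%, 9.39% and 2.43% in the same 3 mice, and at 0.450% to 1.18% in the others. For Defa31 and Defa35, IKO 1 therefore held the third highest value, and for Defa17 it lay within the range of the others.

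Among rows with alike sequences the mice did not always go together. Defa36, which differs from Defa35 at 3 coding bases, was at 0.0884% in WT 4 and 0.0339% in WT 6. IKO 1, at 1.14%, lay within the 0.807% to 2.42% of the other 11 mice. Defa23, whose coding sequence is that of Defa31, stood at 2.95% in WT 4 and 3.20% in WT 6, within the 2.14% to 3.35% of those 11 mice. Defa3, whose coding sequence is that of Defa17, stood at 0.442% and 0.622% in WT 4 and WT 6, with 0.539% to 1.91% in those 11 mice. IKO 1 lay below those 11 mice for Defa23 (1.82%) and Defa3 (0.448%). Defa30 and Defa29, which share no window with other genes, were at 28.1% to 50.8% and 10.02% to 17.4% of Defa24 in all 14 mice. WT 6 had the lowest percent for Defa30 (28.1%) and the highest for Defa29 (17.4%). The 12 mice other than WT 4 and WT 6 were at 33.0% to 50.8% and 10.02% to 14.2%. The ratio of Defa24 to Lyz1 was also lowest in WT 6 (0.381). These relations use counts within a library, so that depth and normalization cancel, whereas the assignment of shared reads does not.

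The 6 rows under other names gave the same picture for the mice named. Gm14851 (Defa38 in RefSeq), AY761184 (Defa39), Gm15293 (Defa41), Gm7849 (Defa42) and Gm7861 (Defa43) had their lowest percent of Defa24 in WT 4 and WT 6, and Gm15292 (Defa40) its highest. Gm7849 had no read in WT 4 or WT 6, 2.20% of Defa24 in IKO 1 and 5.42% to 12.1% in the others. Adding these rows to the alpha-defensin sum left the ratio of IKO to WT means at 1.46.

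**Figure D5:**
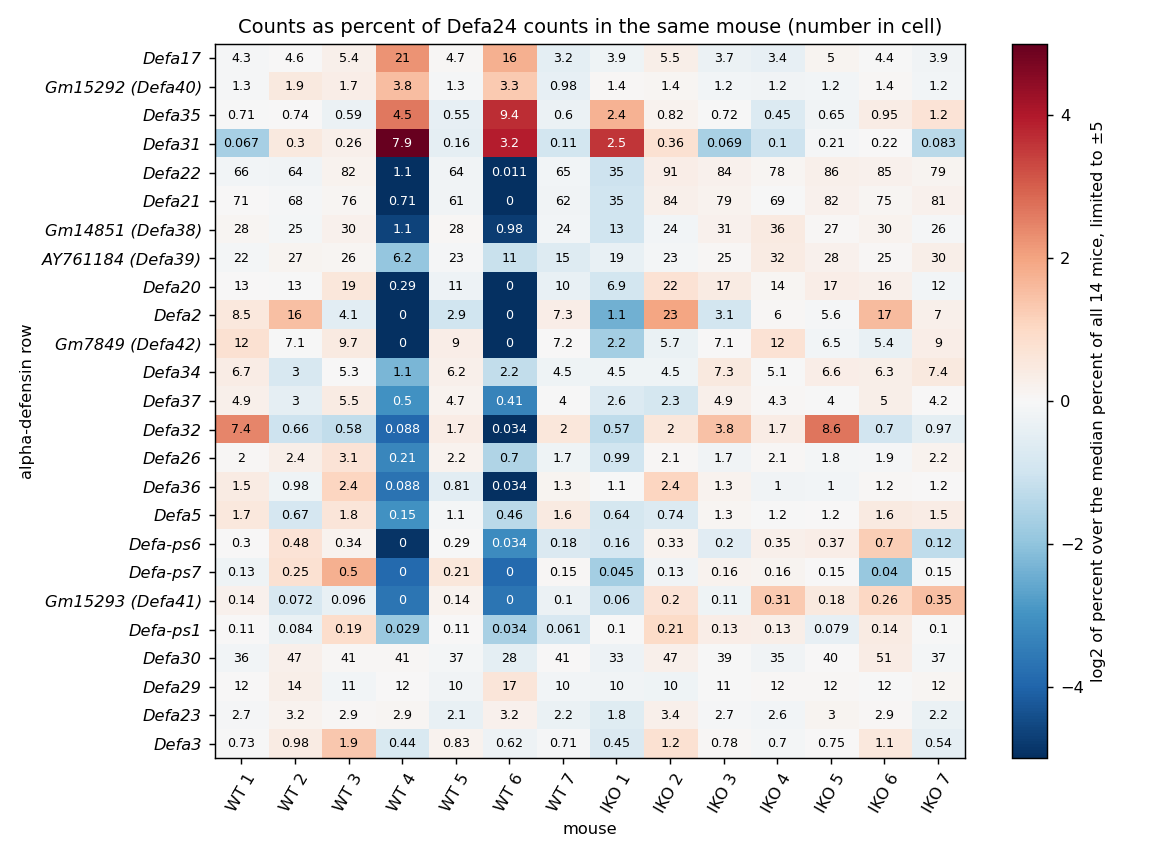
Counts of each tested alpha-defensin row, including 5 rows under other names with their RefSeq names in brackets (y axis), as a percent of the Defa24 counts in the same mouse (x axis, 14 mice). Cell numbers are the percents, and the color is the log2 of the percent over the median of all 14 mice, limited to ±5. The columns of WT 4 and WT 6 are red for the top rows such as Defa17 (21.1% and 15.5%), blue for most others such as Defa22 (1.15% and 0.0113%) and pale for Defa30. IKO 1 is lighter in the same direction for some rows such as Defa22, Defa31 and Defa35, but not for others such as Defa17 (3.88%) and Defa36 (1.14%).

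Genes of the Paneth lineage outside the products were also examined. Of 23 listed genes 19 were tested, 1 was called higher and 1 lower in IKO mice, against 8.67% of all genes called in either direction, and the median of their log2 fold changes was -0.19. Pnliprp2, a pancreatic lipase-related enzyme, rose from 22.8 ± 9.14 to 59.5 ± 24.5 CPM (SD, n = 7 each), a log2 fold change of 1.38 (SE 0.27, adjusted p = 0.0093, edgeR). WT mice ranged from 13.7 to 41.8 CPM and IKO mice from 33.9 to 109 CPM, with an overlap through WT 5. The authors measured Pnliprp2 by RT-qPCR as a triglyceride digestion gene under the nuclear receptor PPARα. They report that regulation as evident in the ileum and the transcript as decreased in the duodenum, so its rise is not particular to the Paneth lineage list. Mptx1, a pentraxin of the mucosa, fell from 1.79 ± 1.17 to 0.532 ± 0.433 CPM (SD, n = 7 each), a log2 fold change of -1.77 (SE 0.53, adjusted p = 0.0495, edgeR). That call was lost when any 1 of 10 mice was left out, with adjusted p between 0.0354 and 0.0938 over the 14 such fits.

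The transcription factors of the lineage did not pass the test. Gfi1, which favors the Paneth and goblet fates over the endocrine fate, had a log2 fold change of -0.75 (SE 0.25, adjusted p = 0.0667, edgeR), with 5.69 ± 1.11 CPM in WT and 3.37 ± 1.11 CPM in IKO mice, and DESeq2 called it lower. For Sox9, which is required for Paneth cells, the log2 fold change was -0.01 (SE 0.28, adjusted p = 0.988, edgeR), with 95% limits of -0.60 and 0.58. Atoh1, the factor that commits cells to the secretory fate, stood at 0.42 (SE 0.27), Spdef at 0.16 (SE 0.23) and Xbp1, a factor of the secretory stress response, at 0.43 (SE 0.22) on the log2 scale. Mptx2, the Paneth cell pentraxin, had a log2 fold change of -0.19 with an SE of 0.61, as wide as that of many alpha-defensins.

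Markers of the other cells that a scrape can hold gave few calls. No gene was called among 7 goblet cell, 5 stem cell, 5 proliferation, 8 enterocyte, 5 enteroendocrine and 5 leukocyte or plasma cell markers tested, whose median log2 fold changes were 0.11, -1.03, -0.06, 0.30, -0.34 and -0.56. Of 4 tuft cell markers 1 was called, Avil, with a log2 fold change of -1.17 (SE 0.33, adjusted p = 0.0413, edgeR), a call kept in 4 of the 14 fits with 1 mouse left out and lost without WT 3 and IKO 4. The share called over all genes was 8.67%. None of the 4 neutrophil markers passed the filter on low counts. The part of these cells in the levels of the Paneth cell products was not tested.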

How the data were processed

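Libraries were made from 1 µg of total RNA of scraped ileum mucosa. Per the submitters' processing notes, the authors used HISAT2 2.0.5 with mm10, featureCounts 1.5.0-p3 and DESeq2 1.16.1. How reads matching several genes, or strand, were handled is not given in the sources used here. The counts were deposited by the authors as whole numbers and not normalized, and the deposited FPKM equal the counts per gene length times 1 number per library. All per-sample columns were mapped (0 not used). Counts were filtered with filterByExpr, normalized by TMM and compared with edgeR 4.0.16 (quasi-likelihood test, genotype only, Benjamini-Hochberg adjustment over 13846 genes, threshold 0.05) in R 4.3.3. An SE is the log2 fold change divided by the square root of F, and intervals are at 95%. The test was checked on simulated data. No 2 libraries of a group agreed within sampling noise (smallest mean chi-square per gene 18.5). Labels give 7 biological replicates per group.

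The members, lists and tests were chosen with earlier results of these data known. Values per mouse were given for the 6 products that are not alpha-defensins, for any alpha-defensin called and for the 4 with the highest mean FPKM. From the Paneth lineage list the called genes and Sox9, Atoh1, Gfi1, Spdef, Xbp1, Mptx1 and Mptx2 were named, and from each marker list up to 3 called genes. Alternatives were RLE normalization, DESeq2 1.42.0, no filter, at least 10 counts in every mouse, limma 3.58.1 on log2 FPKM (above 0.5 in at least 7 mice, pseudocounts 1 and 0.1), removal of mitochondrially encoded genes, the sample number as a block, and mice left out. Rows under other names were matched to RefSeq by synonym (5) or coordinates (1). Coding and transcript sequences are from GENCODE M21 and promoters from RefSeq.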

Additional observations from a re-analysis of the deposited data

Results flagged for a closer look

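In 8 of the 56 groups examined, 1 mouse lay apart from the other 6 of its genotype. A rate of 1 in 20 groups would give about 2.8, but that rate assumes normally distributed values and separate groups. These values are on the linear CPM scale, and the groups come from the same mice and in part from copies that share sequence. The 8 groups are therefore not to be read as an excess over 2.8. The measure is the gap to the nearest mouse divided by the range of the group. Among WT mice, WT 1 was distant for Defa32 (0.834, with 91.1 CPM against 15.2 in the next mouse) and for Mmp7 (0.602, 55.8 against 34.6 CPM), and WT 6 for Defa35 (0.835, 40.3 against 8.74 CPM). Among IKO mice, IKO 2 was distant for Defa2 (0.788, 371 against 82.0 CPM), Defa36 (0.709, 39.4 against 13.9 CPM) and Defa3 (0.578, 20.4 against 9.51 CPM). IKO 4 was distant for Ang4 (0.596, 302 against 136 CPM) and Itln1 (0.627, 1266 against 559.9 CPM), and its mitochondrially encoded genes took 50.3% of the counts. Defa2, Defa3, Defa32 and Defa36 share most of their sequence with other copies, and the part of shared reads in these values was not tested.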

How the results depend on the processing

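No alternative called any of the tested members. Against 1200 genes called in all (607 higher, 593 lower), 2 of the Paneth lineage list and 1 of the other marker lists, DESeq2 called 2484 (1186 higher, 1298 lower) and 7 markers, and omitting the filter gave 508 (346 and 162) with 1 lineage gene and 0 markers. With RLE normalization 1 lineage gene and 2 markers were called. A minimum of 10 counts in every mouse gave 2 markers, and removal of mitochondrially encoded genes 1 lineage gene. Lower genes numbered 328 and 317 with limma at pseudocounts of 1 and 0.1. Without WT 3 and IKO 4, 648 genes (222 lower), 1 lineage gene and 0 markers were called. A pair and a trio of mice were left out after seeing the data. Without WT 4 and WT 6, 570 genes (278 higher, 292 lower), 1 lineage gene and 0 markers were called, and without WT 4, WT 6 and IKO 1, 139 (95 and 44), 0 and 0. With 1 mouse left out, 515 to 1371 genes were called (335 to 684 higher, 180 to 687 lower), with 1 to 2 lineage genes and 0 to 2 markers, fewest without IKO 5. Pnliprp2 was called in all 14 of these fits and in 10 of 11 others (not without WT 4, WT 6 and IKO 1), and Mptx1 and Avil in 4 of the 14 each. Gfi1 was called with DESeq2, with 10 counts in every mouse and with limma at a pseudocount of 1. The cause of these changes was not tested.

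The sample numbers did not pair the mice. Correlations of deviations between mice of the same number ran from -0.305 to 0.232, only 1 of 7 pairs was over 0.1, and 1 WT mouse correlated best with its own number. With the number as a replicate block, 362 genes (226 higher, 136 lower) and 1 lineage gene were called.

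Log2 fold changes of uncalled genes changed sign in several fits, including Defa2, Defa31, Defa35 and Defa36, whose values (1.03, -0.70, -0.67 and 0.70) were not near 0. With limma on log2(FPKM + 1) they were -0.016 for Ang4, 0.066 for Defa-ps7 and -0.032 for Mmp7. With limma on log2(FPKM + 0.1) they were -0.018 for Ang4, 0.69 for Defa-ps7 and -0.040 for Mmp7. With the block they were -0.17 for Ang4, -0.066 for Itln1 and -0.11 for Mmp7. Without WT 3 and IKO 4 they were -0.32 for Ang4, -0.090 for Defa29, -0.059 for Defa32, -0.067 for Defa37, -0.19 for Defa5, -0.19 for Itln1 and -0.35 for Mmp7. Without WT 4 and WT 6 they were 0.065 for Defa17, -0.14 for Defa26, -0.017 for Defa3, 1.36 for Defa31, -0.34 for Defa32, 0.41 for Defa35, -0.26 for Defa37 and -0.39 for Defa5. Without WT 4, WT 6 and IKO 1 they were 0.19 for Defa17, 0.59 for Defa31, -0.14 for Defa32, 0.29 for Defa35, -0.11 for Defa37 and -0.23 for Defa5. With 1 mouse left out, sign changes occurred within the ranges of Ang4 (-0.28 to 0.49), Defa-ps7 (-0.41 to 0.11), Defa17 (-0.63 to 0.059), Defa2 (-0.21 to 1.45), Defa23 (-0.016 to 0.68), Defa26 (-0.060 to 0.58), Defa29 (-0.0016 to 0.47), Defa3 (-0.26 to 0.51), Defa32 (-0.16 to 1.80), Defa35 (-0.96 to 0.31), Defa36 (-0.028 to 1.16), Defa37 (-0.060 to 0.63), Defa5 (-0.18 to 0.51), Itln1 (-0.20 to 0.54), Lyz1 (-0.50 to 0.053), Mmp7 (-0.27 to 0.36) and Pla2g2a (-0.64 to 0.10). Among lineage genes, Sox9 (-0.01) ranged from -0.19 to 0.11 over all alternatives and Mptx2 turned to 0.034 without IKO 5. The summed alpha-defensin ratio in CPM lay between 1.12 and 1.81 with 1 mouse left out, and the ratio of the unscaled shares of counts was 1.03.

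Counts of Lyz1 (5354 to 60134) and Defa24 (3395 to 30011) were high in every mouse, so their standard errors rest mostly on the spread between mice. Defa22 (39 and 1 reads) and Defa21 (24 and 0 reads) were abundant elsewhere but not in WT 4 and WT 6. For copies that share most of their sequence, the handling of shared reads limits what each count can tell.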
